A study of Mus musculus with 12 samples.

Results

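The genes followed here together cover active removal of DNA methylation by oxidation. They are the 3 TET dioxygenase genes Tet1, Tet2 and Tet3, the glycosylase gene Tdg, and the TET partner genes Ogt and Sin3a. They were taken by symbol from a table of 53715 genes, all 6 were found in it, and all 6 passed the filter on low counts that left 19815 genes for testing. TET proteins oxidise the methyl group of 5-methylcytosine in DNA in successive steps, and TDG cuts out the more oxidised forms so that base excision repair can put back an unmodified cytosine. OGT, which adds N-acetylglucosamine to proteins, binds TET proteins, and SIN3A is the scaffold of a histone deacetylase complex that associates with TET1. In the mouse germ line, TET1 is known for its part in demethylation at imprinted and meiotic genes during embryonic development.

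The cells were spermatogonia, the mitotic germ cells of the testis that precede meiosis, from testes of C57BL6/129 mice. The 4 groups of 3 libraries were Tet1KO mice aged 11 months, WT mice aged 11 months, Tet1KO mice aged 3 months and WT mice aged 3 months. A library held cDNA of 1000 flow-sorted cells, amplified by Smart-seq2, which copies full-length transcripts of very few cells. The labels do not state which exons the Tet1KO allele lacks, in which cells it acts, which sorting markers were used or whether each library came from an animal of its own. The p-values therefore describe the spread among these libraries, which may be technical. Levels are given in CPM (counts scaled to a common library size with TMM) or, for comparison between genes, in TPM (which also corrects for exonic length). In libraries made from sorted cells, fewer cells of a type and less RNA per cell cannot be told apart.

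Total counts lay between 8325159 and 18223645 per library, and a count of 0 allows up to 3 counts, or 0.165 to 0.360 CPM before TMM scaling. The germ cell genes Ddx4 and Dazl summed to between 1947 and 2812 CPM. Markers of undifferentiated spermatogonia summed to 94.5 to 207 CPM, of differentiating spermatogonia to 437 to 1301 CPM and of spermatocytes to 624 to 2856 CPM. The spermatocyte list was uneven: Sycp3 and Hormad1 had medians of 1144 and 484 CPM, but Piwil1 and Ccna1 only 2.81 and 3.58 CPM. Among somatic types, leukocyte markers summed to 32.5 to 481 CPM and peritubular myoid markers to 14.3 to 332 CPM. In the leukocyte list Cd74 had the highest median, 193 CPM, and S100a8 was at 0 in 9 libraries. The 5 Leydig cell markers summed to 2.26 to 13.2 CPM, with Star counted in every library, Insl3 and Cyp11a1 at 0 in 4 and 5 libraries, and Cyp17a1 and Hsd3b1 at 0 in 11 of 12. The spermatid list (Prm1, Prm2, Tnp1, Tnp2 and Acrv1) summed to between 270 and 2620 CPM, so RNA of later germ cells was present in every library. Replicate 2 of Tet1KO and replicate 1 of WT at 3 months stood apart on the first principal component (39.0% of the variance) with 30010 and 29420 genes detected, while the other libraries detected at most 26995.

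None of the 6 genes differed between Tet1KO and WT spermatogonia beyond the spread between libraries. With edgeR, 0 of 6 passed the adjusted threshold of 0.05 at 11 months, where 0 of 19815 tested genes (0%) did, and 0 of 6 at 3 months, where again 0 of 19815 (0%) did. At an unadjusted p under 0.05 the counts were 0 of 6 against 1.65% of all tested genes at 11 months and 0 of 6 against 1.14% at 3 months. Over all tested genes DESeq2 called 3 at 11 months and 2 at 3 months, and limma-voom called 0. For none of the 6 genes did all Tet1KO libraries lie above or below all WT libraries, which held for 5.36% of tested genes at 11 months and 6.94% at 3 months.

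The genes differed instead in how closely the libraries agreed. Tet3 and Ogt were held within 1.46-fold and 1.49-fold over all 12 libraries, whereas Tdg spanned 10.2-fold. Tet1, on few counts, ran from 0 to 1.73 CPM, so no fold range can be given for it.

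**Figure D1:**
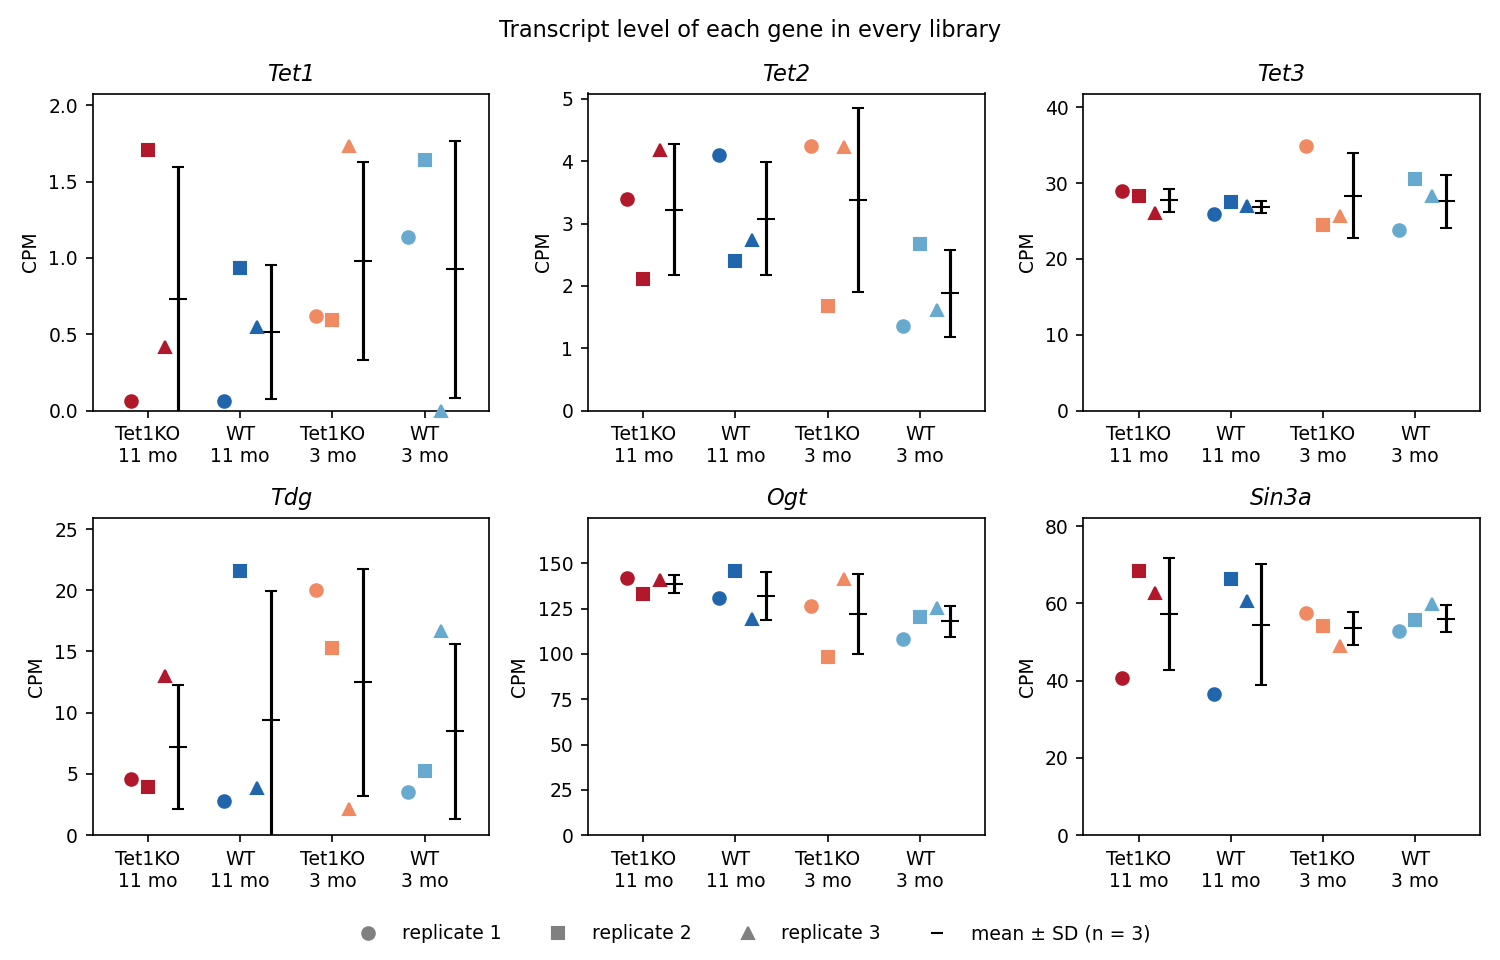
Level in CPM (vertical axes, linear, from 0) of each gene in each of the 12 libraries, by group (horizontal axes). Marker shapes are replicates and black bars are the mean ± SD of 3 libraries, cut at 0. The groups overlap in every panel, Tet3 and Ogt points lie close together, and Tdg has 5 libraries above 10 CPM spread over all 4 groups.

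The TET genes are described first. Tet1 (ENSMUSG00000047146, chr10:62804570-62908996, minus strand, mm10), the gene targeted in the Tet1KO mice, has 15457 exonic bases. Its raw counts were 1, 17 and 5 in Tet1KO and 1, 16 and 5 in WT at 11 months. At 3 months they were 6, 11 and 18 in Tet1KO and 15, 16 and 0 in WT. The labelled knockouts thus held Tet1 reads in every library, and 1 WT library held none. Because counts run over the whole gene and the deleted exons are not stated, these values do not check the genotype, and WT and Tet1KO are used here as label names.

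Per length, Tet1 was the lowest of the 6 genes, at a mean of 0.10 ± 0.087 TPM (SD, n = 12), and 0.187% of tested genes had a lower mean. That share covers only the genes past the filter on counts, which takes no account of length. The fitted log2 fold change of Tet1 in Tet1KO relative to WT was 0.45 ± 1.30 (SE) at 11 months and 0.05 ± 1.27 at 3 months. The 95% confidence intervals ran from -2.38 to 3.29 at 11 months and from -2.73 to 2.83 at 3 months. The intervals thus leave room for a difference of several fold in either direction. Tet1 had 111 counts in all 12 libraries together, and its counts did not follow library size: the 11-month libraries of 16323020 (Tet1KO) and 16248463 (WT) total counts held 1 each, and that of 8599667 (Tet1KO) held 17. Its biological coefficient of variation in edgeR was 0.996.

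Tet2 (ENSMUSG00000040943, chr3:133463679-133545139, minus strand) encodes a TET enzyme that, unlike TET1 and TET3, has no CXXC domain of its own for binding DNA. It stood at 3.39, 2.11 and 4.18 CPM in Tet1KO and at 4.10, 2.39 and 2.74 CPM in WT at 11 months. At 3 months it stood at 4.24, 1.67 and 4.23 CPM in Tet1KO and at 1.36, 2.67 and 1.61 CPM in WT. At 3 months 2 Tet1KO libraries lay above all 3 WT libraries, and Tet1KO replicate 2 lay inside the WT range. This was the largest fitted difference between Tet1KO and WT among the 6 genes at 3 months, a log2 fold change of 0.84 ± 0.49 (SE) with a 95% confidence interval of -0.23 to 1.90. It did not pass the test (unadjusted p = 0.112, adjusted p = 1.0 with edgeR; exact two-sided permutation p = 0.2, where 3 against 3 libraries cannot go below 0.1).

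Tet1KO replicate 2 and WT replicate 1, the pair of 3-month libraries set apart on the first component, held the lowest Tet2 value of their groups. Without them the Tet2 log2 fold change at 3 months was 0.97 ± 0.52 (unadjusted p = 0.0903 with edgeR). With 1 library left out at a time, that value ran from 0.64 to 1.18. At 11 months the Tet2 log2 fold change was 0.07 ± 0.47. The difference between these genotype effects, 11 minus 3 months, was -0.77 ± 0.68 and did not pass the test either (unadjusted p = 0.280 with edgeR). Tet2 shares 43 exonic bases with Gm42567 on the opposite strand, which had at most 3 counts in a library. Sertoli cells are the somatic nurse cells of the tubule. At 3 months their 7 marker genes summed to 13.3 to 39.7 CPM in Tet1KO and 56.2 to 161 CPM in WT, without overlap. At 11 months the Sertoli sums were 17.2 to 18.6 CPM in Tet1KO and 7.78 to 57.2 CPM in WT. The Sertoli list was led by Cst12, with a median of 16.2 CPM and a range of 1.21 to 102 CPM over the 12 libraries. Sox9, Amh, Cldn11 and Rhox5 had medians of 0.614, 0.428, 1.47 and 1.18 CPM, so the sums weigh the Sertoli genes unequally. The 4 peritubular myoid markers did not overlap at 11 months, with sums of 14.3 to 45.5 CPM in Tet1KO and 56.7 to 198 CPM in WT. The Leydig sums did not overlap at 3 months, at 5.68 to 13.2 CPM in Tet1KO and 4.001 to 4.46 CPM in WT. These lists were named because their sums did not overlap at an age, and the other marker lists overlapped at both ages. For single tested genes, groups did not overlap in 6.94% at 3 months and 5.36% at 11 months. The part of these and of the leukocyte markers in the Tet2 values, and in those of the genes below, was not tested.

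Tet3 (ENSMUSG00000034832, chr6:83362373-83459084, minus strand) encodes the TET enzyme known for oxidising the paternal genome in the zygote. It stood at 28.9, 28.2 and 26.0 CPM in Tet1KO and at 25.9, 27.5 and 27.0 CPM in WT at 11 months. At 3 months the values were 34.8, 24.5 and 25.7 CPM in Tet1KO and 23.8, 30.6 and 28.3 CPM in WT. The 6 libraries of 11 months lay within a narrow band, and those of 3 months were wider, with ranges that overlapped in part. The log2 fold change in Tet1KO relative to WT was 0.05 ± 0.17 (SE) at 11 months, with a 95% confidence interval of -0.32 to 0.42. At 3 months it was 0.04 ± 0.17, with an interval of -0.33 to 0.41. On a linear scale the intervals of both ages together reached from 0.796-fold to 1.34-fold of the WT level.

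Of the summed TPM of the 3 TET genes, Tet3 made up 87.4% ± 2.24 (SD, n = 3) in Tet1KO and 88.1% ± 1.62 in WT at 11 months. At 3 months its share was 86.7% ± 5.34 in Tet1KO and 90.8% ± 3.67 in WT. Tet3 therefore supplied most TET transcript in every group, and its lowest share in a single library was 80.9%, in Tet1KO replicate 3 of 3 months. Tet2 supplied between 5.10% and 13.5% of the family TPM in a library.

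**Figure D2:**
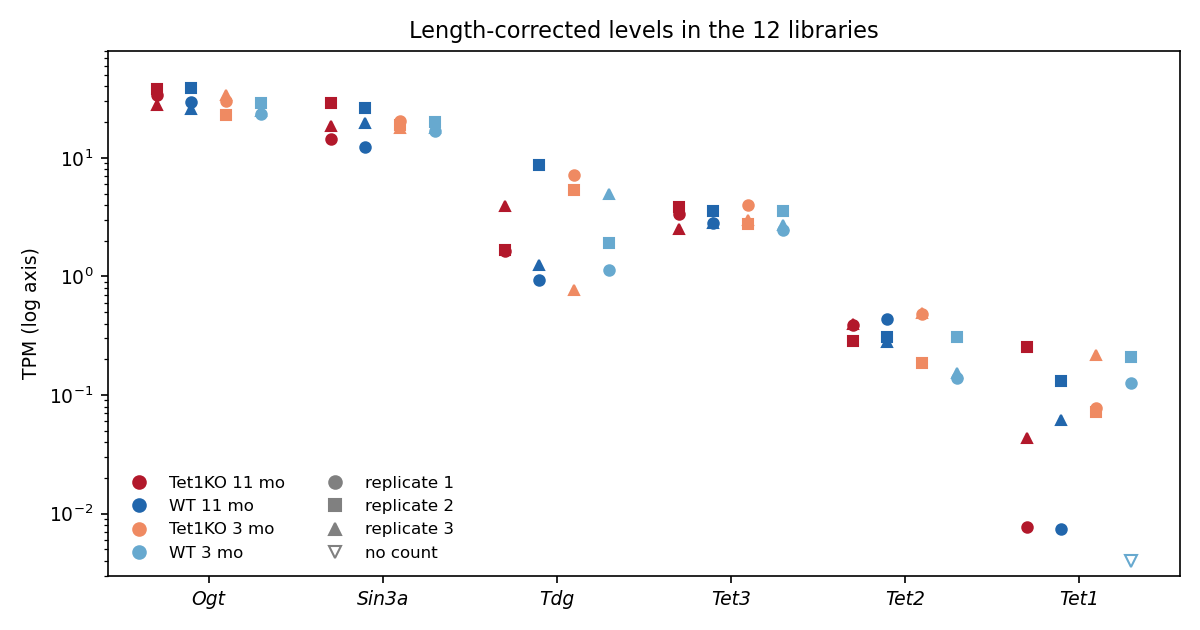
Level of each gene in TPM (vertical axis, log scale) in the 12 libraries, with genes in order of their mean, groups by colour and replicates by marker shape. Ogt and Sin3a lie highest, Tet1 lowest, and the Tdg points straddle those of Tet3. The open triangle, placed at the foot of the axis, is the WT library with no Tet1 count.

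Over the 12 libraries the order per length was Ogt (29.9 ± 5.41 TPM, SD), Sin3a (19.4 ± 4.60), Tdg (3.28 ± 2.69), Tet3 (3.12 ± 0.536), Tet2 (0.322 ± 0.121) and Tet1. Ogt was above Sin3a, Sin3a above Tdg, Tet3 above Tet2 and Tet2 above Tet1 in 12 of 12 libraries each, although the ranges of Ogt and Sin3a, and those of Tet2 and Tet1, overlapped between libraries. The exception was the pair of Tdg and Tet3, where Tdg was the higher in 5 of 12 libraries and the means differed by less than the spread. TPM took 5374 exonic bases for Tdg, whereas its transcript aligned below has 2959 bases, so the place of Tdg may depend on the length taken.

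The partner genes were the most abundant of the 6. Ogt (ENSMUSG00000034160, chrX:101640060-101684351, plus strand) encodes the sole enzyme that adds N-acetylglucosamine to nuclear and cytoplasmic proteins. It stood at 142, 133 and 141 CPM in Tet1KO and at 131, 146 and 119 CPM in WT at 11 months. At 3 months it stood at 126, 98.2 and 141 CPM in Tet1KO and at 108, 120 and 125 CPM in WT. The lowest values, 98.2 and 108 CPM, were those of the pair of libraries set apart on the first component. The log2 fold change in Tet1KO relative to WT was 0.07 ± 0.15 (SE) at 11 months, with a 95% confidence interval of -0.25 to 0.39. At 3 months it was 0.05 ± 0.15, with an interval of -0.27 to 0.37, and 0.12 ± 0.16 without the pair set apart.

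Sin3a (ENSMUSG00000042557, chr9:57072040-57128366, plus strand) stood at 40.7, 68.4 and 62.6 CPM in Tet1KO and at 36.7, 66.2 and 60.6 CPM in WT at 11 months. At 3 months its values were 57.5, 54.0 and 49.0 CPM in Tet1KO and 52.8, 55.7 and 59.7 CPM in WT. At 11 months replicate 1 was the low library in both genotypes, and the remaining Sin3a values of both genotypes lay between 60.6 and 68.4 CPM. These replicate 1 libraries also stood apart on the second principal component (12.3% of the variance), with scores of -70.5 in Tet1KO and -64.2 in WT. Their summed spermatid markers were 2306 CPM in Tet1KO and 2526 CPM in WT, against 270 to 981 CPM in the other libraries of 11 months. The library with the highest spermatid sum of all, WT replicate 1 of 3 months at 2620 CPM, had Sin3a at 52.8 CPM. The other WT libraries of 3 months had Sin3a at 55.7 and 59.7 CPM. The part of the spermatid markers in the Sin3a values was not tested.

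The Sin3a log2 fold change in Tet1KO relative to WT was 0.07 ± 0.23 (SE) at 11 months and -0.07 ± 0.23 at 3 months. At 11 months Sin3a was higher in Tet1KO in each of the 3 same-numbered pairs. At 3 months the pairs went both ways: 57.5 CPM in Tet1KO against 52.8 CPM in WT, 54.0 against 55.7, and 49.0 against 59.7. The labels do not state that same-numbered libraries belong together. How often tested genes kept the same direction in all pairs was not counted. With the replicate block the value was 0.08 ± 0.12 at 11 months (unadjusted p = 0.524 with edgeR). At 3 months the value with the block was -0.07 ± 0.12 (unadjusted p = 0.594 with edgeR). Without the block, the 95% confidence interval ran from -0.43 to 0.57 at 11 months and from -0.57 to 0.44 at 3 months. Sin3a shares 213 exonic bases (3.96%) with genes on the opposite strand, of which Man2c1os had 87 to 212 counts per library. The counting did not use strand, so reads in those bases cannot be assigned.

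Tdg (ENSMUSG00000034674, chr10:82629828-82650799, plus strand) was the least even of the 4 genes with an average above 3 log2 CPM. It stood at 4.62, 3.92 and 13.03 CPM in Tet1KO and at 2.78, 21.6 and 3.84 CPM in WT at 11 months. At 3 months it stood at 20.05, 15.3 and 2.12 CPM in Tet1KO and at 3.55, 5.23 and 16.6 CPM in WT. Every group held libraries above 10 CPM (5 in all) and libraries at or below 5.23 CPM (7 in all), with none between. Of the 5 high libraries 3 were Tet1KO and 2 WT, and 2 were from 11 months and 3 from 3 months. The biological coefficient of variation that edgeR estimated for Tdg was 0.790, above that of 91.1% of the 2266 tested genes within 0.5 log2 CPM of its level, whereas that of Tet3 was above only 13.3% of its neighbours.

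The Tdg log2 fold change in Tet1KO relative to WT was -0.39 ± 0.97 (SE) at 11 months and 0.57 ± 0.98 at 3 months. The 95% confidence intervals were -2.55 to 1.76 and -1.59 to 2.73, so neither direction can be read from these libraries. At 3 months the value was 0.02 ± 1.17 without the pair set apart, and with 1 library left out at a time it ran from 0.032 to 1.52.

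Tdg has near-identical copies elsewhere in the genome. Of its transcript 50-mers, 41.2% occur, on either strand, in transcripts of other genes in GENCODE vM21. The share was 1.97% for Sin3a, 0.462% for Tet1 and at most 0.0360% for Tet2, Tet3 and Ogt. These shares include genes that overlap at the same locus: Glt8d2 shares 5.72% of the Tdg 50-mers, and Man2c1os accounts for the 1.97% of Sin3a. The Tdg copies elsewhere in the genome are processed pseudogenes. Of these, AC122846.1 shares 2.20% of the 50-mers, and its counts are not given. Gm9855 (chr10:42054113-42055306, minus strand, 1194 bases) aligns over the whole Tdg coding sequence of 1191 bases with 99.2% identity. Tdg-ps (chr15:82516311-82519278, plus strand) aligns over it with 98.8% identity. A 120-base stretch is printed below, coding bases 982 to 1101 of Tdg, from the GENCODE vM21 transcripts (GRCm38, the assembly named mm10). It is written 5′ to 3′ in the sense of Tdg. Among gap-free coding stretches of that length it was chosen because Gm9855 differs most from Tdg there, so it is not typical. Over the whole alignment of Gm9855, 1185 of 1194 bases are identical. Capitals in the Tdg line mark bases at which either copy differs, and capitals in the copies mark bases that differ from Tdg, 5 in Gm9855 and 4 in Tdg-ps.
Tdg: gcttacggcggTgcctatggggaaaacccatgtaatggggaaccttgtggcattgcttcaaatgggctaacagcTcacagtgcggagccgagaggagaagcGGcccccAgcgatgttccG
Gm9855: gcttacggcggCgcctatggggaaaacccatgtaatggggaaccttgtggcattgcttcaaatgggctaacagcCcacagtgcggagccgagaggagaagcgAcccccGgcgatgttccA
Tdg-ps: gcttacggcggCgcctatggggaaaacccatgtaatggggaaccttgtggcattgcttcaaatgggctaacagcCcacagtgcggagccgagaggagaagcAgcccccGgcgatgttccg

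The row of Gm9855 held counts in every library, 17 to 113, whereas Tdg-ps had 1 to 7 and the further copy Gm5597 had 0 to 4. Gm9855 stood at 6.16, 10.5 and 3.09 CPM in Tet1KO and at 7.13, 6.18 and 7.13 CPM in WT at 11 months. At 3 months it stood at 3.20, 2.80 and 4.61 CPM in Tet1KO and at 3.10, 8.11 and 2.28 CPM in WT. Its row exceeded that of Tdg in 6 of 12 libraries, none of them among the 5 with high Tdg. Reads from identical stretches cannot be assigned to either gene, and with the mapping quality minimum of 30 used in counting, the Tdg values are uncertain to that extent.

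**Figure D3:**
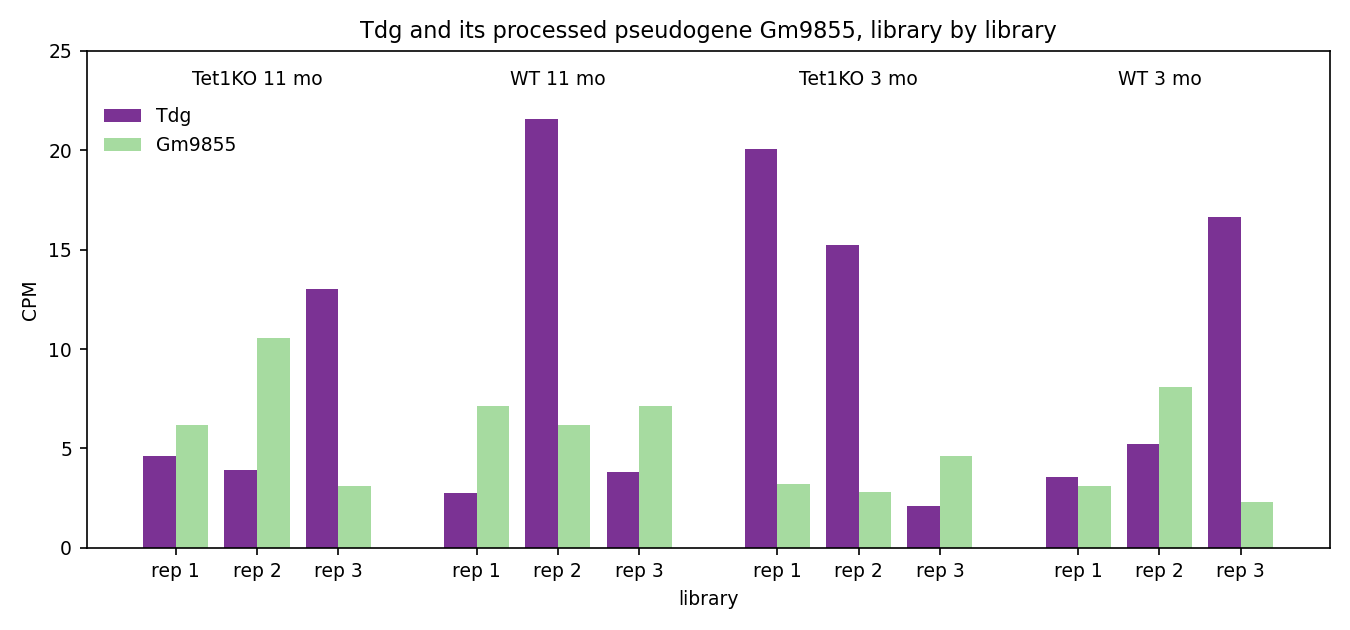
Level in CPM (vertical axis, linear, from 0) of Tdg and of its processed pseudogene Gm9855 in each of the 12 libraries, grouped by genotype and age. Tdg is the taller bar by a wide margin in 5 libraries, at 13.03 to 21.6 CPM, and Gm9855 is the taller in 6.

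The counts of Tdg and of its 3 copies Gm9855, Tdg-ps and Gm5597 were also added up, an alternative chosen after seeing the data. The sum spanned 4.12-fold over the 12 libraries, against 10.2-fold for Tdg, but adding counts can narrow such a ratio in itself. In CPM the sum ran from 6.83 to 28.1, against 2.12 to 21.6 for Tdg alone. The 5 libraries with high Tdg also had the highest sums, 16.5 to 28.1 CPM, against at most 14.7 CPM in the others. Because Tdg is part of the sum and these libraries were picked by it, that order was largely set in advance. The part of the copies in the Tdg spread was not tested. Tdg supplied between 26.7% and 84.9% of that sum. The summed level was 14.2 ± 2.57 CPM (SD, n = 3) in Tet1KO and 16.4 ± 10.1 CPM in WT at 11 months, and 16.4 ± 8.78 CPM in Tet1KO and 13.5 ± 6.28 CPM in WT at 3 months. As with Tdg alone, the groups overlapped at both ages. Tdg also shares 367 exonic bases (6.83%) with Glt8d2 on the opposite strand, which had 2 to 60 counts per library.

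Age was compared within each genotype. With edgeR, 0 of 6 genes passed the adjusted threshold at 11 relative to 3 months in Tet1KO, where 0 of 19815 tested genes (0%) did, and 0 of 6 passed it in WT, where 0 of 19815 (0%) did. At an unadjusted p under 0.05 these were 0 of 6 against 2.33% of all tested genes in Tet1KO and 0 of 6 against 5.67% in WT. DESeq2 called 7 genes over the whole table in Tet1KO and 0 in WT, and limma-voom called 0. None of the 6 had groups that did not overlap, which held for 6.20% of tested genes in Tet1KO and 11.5% in WT.

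Ogt averaged 139 ± 4.76 CPM (SD, n = 3) at 11 months and 122 ± 22.0 CPM at 3 months in Tet1KO, and 132 ± 13.4 CPM at 11 months and 118 ± 8.74 CPM at 3 months in WT. The log2 fold changes of 0.18 ± 0.15 (SE) in Tet1KO and 0.16 ± 0.15 in WT did not pass the test, and were 0.05 ± 0.15 and 0.10 ± 0.15 without the pair of libraries set apart. In WT, Tet2 averaged 3.08 ± 0.903 CPM at 11 months and 1.88 ± 0.694 CPM at 3 months, a log2 fold change of 0.71 ± 0.48 (unadjusted p = 0.168, adjusted p = 0.791 with edgeR). In Tet1KO it averaged 3.22 ± 1.04 CPM at 11 months and 3.38 ± 1.48 CPM at 3 months. The WT group of 3 months, in which Tet2 was lowest, enters both this age difference and the genotype difference at 3 months, so these are not independent. Tet3 stood within 26.8 and 28.3 CPM in all 4 group means.

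**Figure D4:**
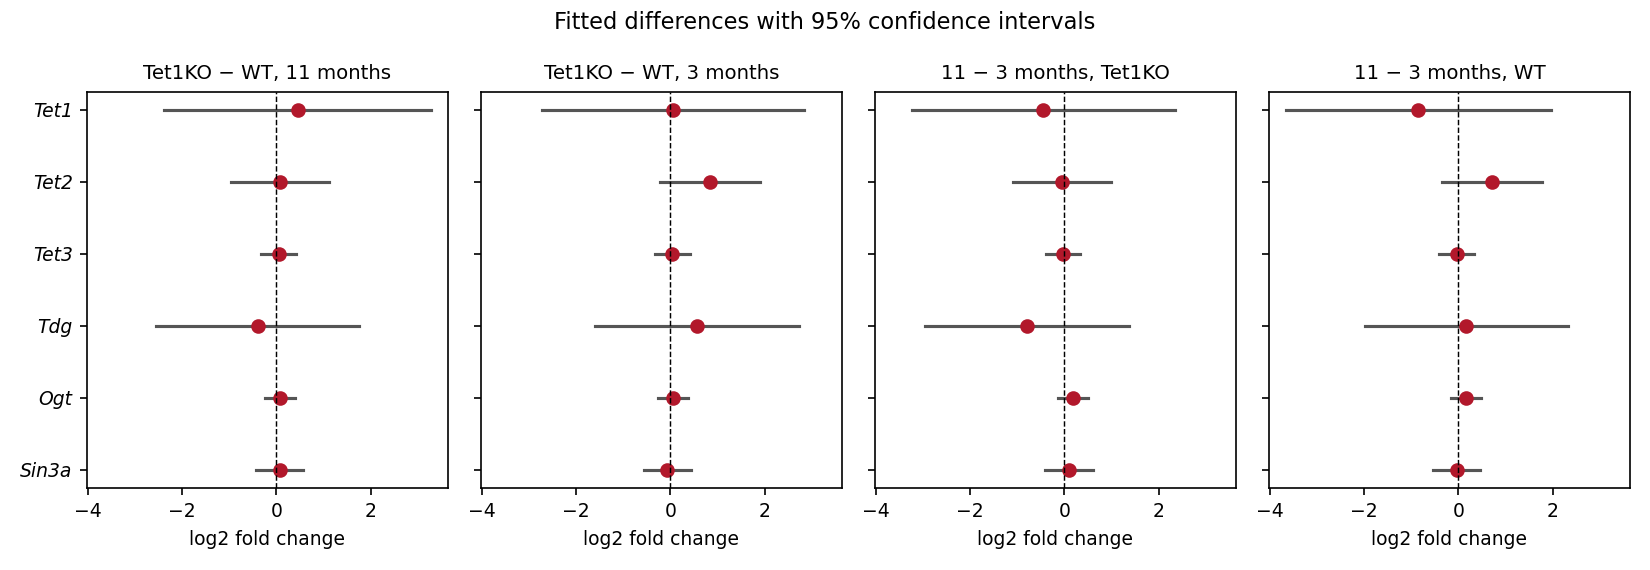
Fitted log2 fold changes (horizontal axes) of the 6 genes with 95% confidence intervals, for Tet1KO minus WT at 11 and 3 months and for 11 minus 3 months in Tet1KO and WT. Every interval crosses 0, those of Tet3 and Ogt are the narrowest, and those of Tet1 and Tdg the widest.

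Averaged over both ages, no gene passed an exact two-sided permutation test that exchanged libraries within age, where the smallest possible p is 0.005. The p was 0.23 for Tet2, which had a mean difference of 0.39 log2 CPM, and ran from 0.585 for Ogt to 0.95 for Sin3a among the other 5. In the edgeR fit, 0 of 6 genes passed the adjusted threshold, where 0 of 19815 tested genes (0%) did, and 0 of 6 had an unadjusted p under 0.05, against 1.43% of all tested genes, while DESeq2 called 2 over the whole table and limma-voom 0. The difference of the genotype effect between ages was past the adjusted threshold for 0 of 6 genes and 0 of 19815 (0%), with 0 of 6 and 1.57% at an unadjusted p under 0.05, and neither DESeq2 nor limma-voom called a gene.

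The other genes of the pathway were examined as 4 lists. Of 14 base excision repair genes that act after TET oxidation, all were tested and 0 passed the adjusted threshold with edgeR at either age. At 11 months 5 had higher and 9 lower fitted values in Tet1KO than in WT, with a median log2 fold change of -0.08, against 0.02 over all tested genes. At 3 months 8 were higher and 6 lower, with a median of 0.02, against -0.02 over all tested genes. The highest at 11 months was Polb, the repair polymerase beta gene (0.09 ± 0.19, SE). At 3 months the extremes were the glycosylase genes Neil1 (0.82 ± 0.49), at 2.79 ± 1.43 CPM in Tet1KO and 1.58 ± 0.384 CPM in WT, and Neil3 (-0.20 ± 0.24).

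Of 17 partners of OGT and SIN3, among them the O-GlcNAcase gene listed as Mgea5, all were tested and 0 passed. The fitted values in Tet1KO were higher for 9 and lower for 8 at 11 months (median 0.02), and higher for 12 and lower for 5 at 3 months (median 0.03). The deacetylase gene Hdac1 was the highest at both ages, with log2 fold changes of 0.21 ± 0.36 (SE) at 11 months and 0.40 ± 0.37 at 3 months. The lowest were Sinhcaf, a SIN3 complex subunit gene, at 11 months (-0.30 ± 0.16, SE) and Ing2, a histone reader gene of that complex, at 3 months (-0.54 ± 0.23). At 3 months Ing2 stood at 17.8 ± 2.82 CPM (SD, n = 3) in Tet1KO and 26.0 ± 5.92 CPM in WT. Its unadjusted p was 0.0337 and its adjusted p 1.0 with edgeR. It was the 1 gene of 17 with an unadjusted p under 0.05 at 3 months, against 1.14% of all tested genes. At 11 months the Ing2 log2 fold change was 0.09 ± 0.22 (SE). The list gene with an unadjusted p under 0.05 at 11 months, named after its values were seen, was Rbbp7, a histone-binding subunit gene. It stood at 414 ± 31.7 CPM in Tet1KO and 507 ± 18.3 CPM in WT, with a log2 fold change of -0.29 ± 0.13 (SE). Its unadjusted p was 0.0396 and its adjusted p 1.0 with edgeR. That is 1 gene of 17, against 1.65% of all tested genes. At 3 months the Rbbp7 log2 fold change was 0.14 ± 0.13 (SE).

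Of 20 regulators, cofactor suppliers and readers of TET products, 18 were tested, the others being too low, and 0 passed. The fitted values in Tet1KO were higher for 8 and lower for 10 at each age, with medians of -0.05 at 11 months and -0.03 at 3 months. Gadd45g, a stress-response gene of a family linked to DNA demethylation, stood at 18.9 ± 7.75 CPM in Tet1KO and 36.0 ± 10.6 CPM in WT at 11 months. Its log2 fold change was -0.93 ± 0.31 (SE), with an unadjusted p of 0.0119 and an adjusted p of 1.0 with edgeR. At 11 months it was the 1 gene of 18 with an unadjusted p under 0.05, against 1.65% of all tested genes. At 3 months its log2 fold change was 0.26 ± 0.31 (SE). Apobec1, a cytidine deaminase gene, was the highest at both ages, at 1.35 ± 0.84 and 0.57 ± 0.84, and Cxxc4, which encodes a CXXC protein that binds TET2, was the lowest at 3 months (-0.51 ± 1.05).

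The last list held 4 meiotic genes whose activation needs TET1 in primordial germ cells of female mouse embryos. In these spermatogonia 0 of 4 passed. Stra8, the gatekeeper gene of meiotic entry, stood at 622 ± 463 CPM in Tet1KO and 771 ± 173 CPM in WT at 11 months and at 672 ± 402 CPM in Tet1KO and 734 ± 152 CPM in WT at 3 months. Sycp1, a synaptonemal complex gene, had the highest fitted log2 fold change at 11 months (0.25 ± 0.30, SE) and Stra8 the lowest (-0.31 ± 0.52). At 3 months the piRNA pathway gene Mael was the highest (0.20 ± 0.24) and the synaptonemal complex gene Sycp3 the lowest (-0.26 ± 0.45). The medians were 0.06 at 11 months and -0.17 at 3 months.

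**Figure D5:**
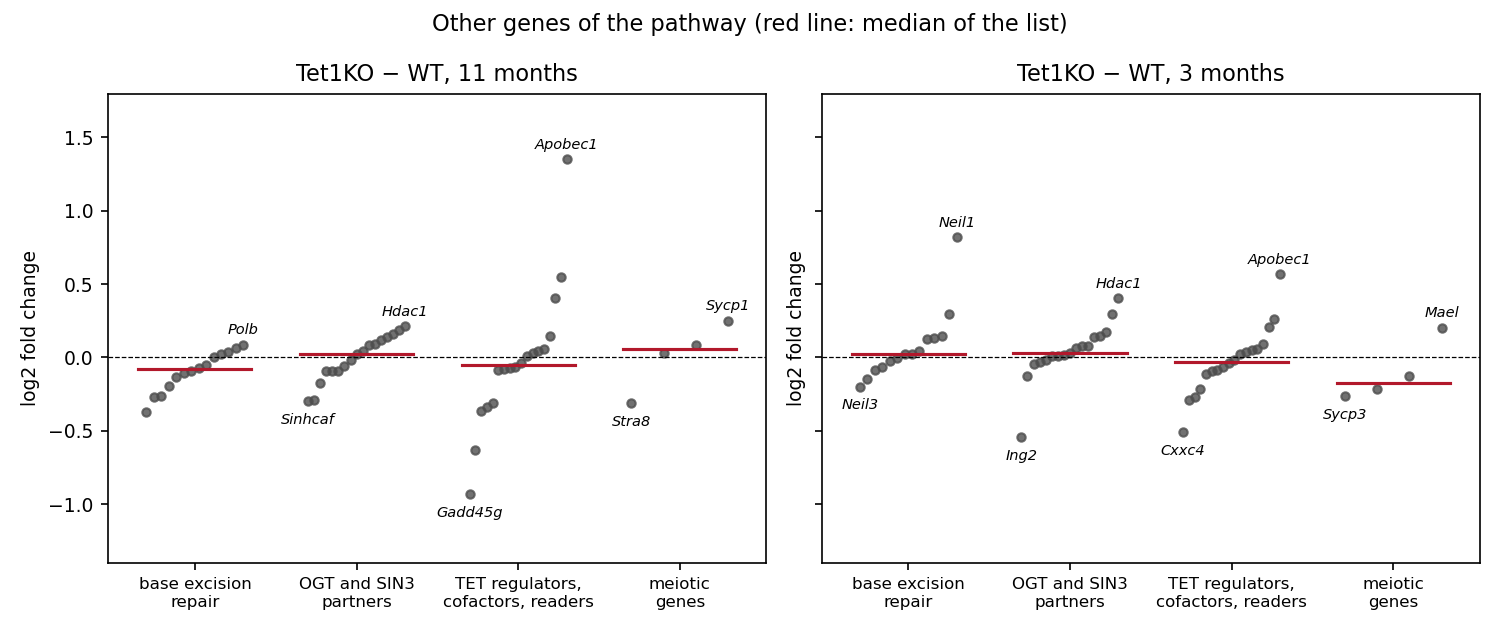
Fitted log2 fold changes (vertical axes) in Tet1KO relative to WT at 11 and 3 months for the tested genes of 4 pathway lists, in rank order within each list, with the list median as a red line and the extreme genes that the text gives named. Most genes lie close to 0, and Apobec1 and Gadd45g at 11 months and Neil1 at 3 months lie farthest from it.

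For the 4 members with an average of at least 3 log2 CPM, the tested genes with the most similar course over the 12 libraries were found among 10342 genes of that abundance. For Tet3 these were Zcchc4, Gtf3c2 and Numa1, each with a Pearson r of 0.85. For Sin3a they were Pik3c3 (r = 0.95), Ski (0.91) and Lrrc49 (0.91), and for Ogt they were Srsf6, Jag2 and Apaf1 (0.91 each). The Ogt correlations were 0.67 to 0.76 without the pair of libraries set apart, whereas those of Tet3, Sin3a and Tdg stayed at 0.78 or above. For Tdg they were Arrdc2 (0.86), 2610005L07Rik (0.85) and Gm10557 (0.83), of which 2610005L07Rik ranged from 8.94 to 83.0 CPM and Gm10557 from 5.32 to 55.8 CPM. These correlations are maxima over many genes in 12 libraries that share depth and cell content, and carry no test.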

How the data were processed

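RNA was measured in 12 libraries, 3 in each of 4 groups. The deposited table by the authors holds raw counts for 53715 genes. Counting used featureCounts 1.6.2 with GENCODE vM17, per the file headers: strand was ignored, mapping quality had to reach 30, and a fragment over several genes counted for each. HISAT2, SAMtools and the build mm10 are named in the submitters' processing notes, without versions of the tools. Symbols came from GENCODE vM21, matched on the identifier without its version, for 53620 genes.

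From the deposited counts, genes were filtered with filterByExpr, scaled with TMM and tested with edgeR 4.0.16 (R 4.3.3), using its two-sided quasi-likelihood F test with robust settings on all 12 libraries with 1 mean per group and Benjamini-Hochberg adjustment over 19815 genes. Standard errors and 95% intervals come from the F statistic. TPM used the exonic lengths of the deposited table. Exact permutation tests used log2 CPM with a prior count of 2. The 50-mers and alignments of Tdg used GENCODE vM21 transcripts. The procedure was tested on simulated data. The range of counts that a 0 allows covers counting error only, since reads carry no molecular identifiers. Between libraries of a group, chi-square per degree of freedom over genes was at least 9.85, so each library counted as 1 replicate.

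The members and the lists were chosen with earlier results of these data known. Pathway genes were named where they had the highest or lowest fold change of their list in Tet1KO minus WT at either age, and Stra8 also by level. Some genes of the lists are not reported here by name. The values of the copies of Tdg were chosen after they were seen. Same-numbered libraries of both genotypes deviated together at 11 months, with correlations of 0.371, 0.167 and 0.332 for replicates 1, 2 and 3. At 3 months the correlations were -0.589, -0.182 and 0.296, so only those of replicate 3 did. The alternatives were RLE factors, no filter, only the groups compared, the replicate number as a block, DESeq2 1.42.0, limma-voom 3.58.1 with sample quality weights, no mitochondrial genes, and left-out libraries. Chosen after seeing the data were fits without the 2 libraries whose code has another prefix, and Tdg summed with its copies.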

Additional observations from a re-analysis of the deposited data

How the results depend on the processing

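No fold change of the 6 genes passed the adjusted threshold under any alternative run, the smallest adjusted p being 0.664. Over the whole table, the counts of called genes were 0 under every alternative but DESeq2, which called 3 for Tet1KO against WT at 11 months, 2 at 3 months, 2 averaged over both ages and 7 for age in Tet1KO. The replicate block changed no call. Of 310 refitted values of the 36 log2 fold changes, leaving out no single library, 280 kept their sign, and of 288 with 1 library left out 217 did. Tet1 rests on few counts with a wide spread, and Tdg has copies that reads may share. Signs turned for values near 0 or with wide errors, and the cause was not tested.

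For Tet1KO minus WT at 11 months, Tdg was 0.10 with the replicate block, and with limma-voom Tet1 was -0.023 and Tdg 0.026. The Tdg difference in mean log2 CPM was 0.0036 with TMM, -0.0083 with RLE factors and -0.066 when summed with its copies. At 3 months, without the libraries of the other code prefix, Tet3 was -0.029 and Tdg -0.20, and the Sin3a difference in mean log2 level was 0.061 in TPM. Averaged over both ages, Tdg was -0.19 without the pair set apart and -0.31 without the other prefix. Sin3a was -0.0044 with RLE factors and with DESeq2, -0.0054 with limma-voom, -0.023 without the pair set apart and -0.024 without the other prefix.

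For age in Tet1KO without the other prefix, Tet2 was 0.13 and Tet3 0.14. For age in WT, Tet3 was 0.078 without the other prefix, and Tdg was -0.026 with limma-voom, -0.20 without the pair set apart and -0.063 without the other prefix. For the difference between ages, Tet1 was -0.21 with limma-voom, -0.027 without the pair set apart and -0.54 without the other prefix. Tet3 was -0.0036 with RLE factors, -0.019 without a filter, -0.0019 with DESeq2 and -0.026 without mitochondrial genes. Ogt was -0.011 without a filter, -0.021 with limma-voom, -0.054 without the pair set apart, -0.017 without mitochondrial genes and -0.012 without the other prefix.

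With 1 library left out at a time, these log2 fold changes took either sign. For Tet1KO minus WT at 11 months the ranges were -1.12 to 1.28 (Tet1), -0.16 to 0.33 (Tet2), -1.14 to 1.12 (Tdg), -0.0084 to 0.15 (Ogt) and -0.16 to 0.26 (Sin3a). At 3 months they were -0.62 to 0.71 (Tet1), -0.13 to 0.13 (Tet3), -0.075 to 0.18 (Ogt) and -0.12 to 0.0063 (Sin3a). Averaged over both ages they were -0.53 to 0.67 (Tet1), -0.043 to 0.091 (Tet3), -0.28 to 0.85 (Tdg), -0.0059 to 0.13 (Ogt) and -0.10 to 0.10 (Sin3a). For age in Tet1KO they were -2.03 to 0.24 (Tet1), -0.39 to 0.17 (Tet2), -0.13 to 0.15 (Tet3) and -0.050 to 0.29 (Sin3a). For age in WT they were -0.14 to 0.048 (Tet3), -1.35 to 1.13 (Tdg) and -0.20 to 0.19 (Sin3a). For the difference between ages they were -1.18 to 1.22 (Tet1), -0.085 to 0.17 (Tet3), -1.94 to 0.56 (Tdg), -0.11 to 0.14 (Ogt) and -0.11 to 0.33 (Sin3a).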
